A study of Mus musculus with 68 samples.

Results

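The transcripts of 9 genes that build the aggrecan complex of cartilage or link its parts were followed across the growth plate: Acan, Hapln1, Comp, Matn1, Matn3, Matn4, Lect1, Fn1 and Vcan. They were chosen by name, as the rows of these 9 symbols among the 23420 gene symbols of the count table. The growth plate is the cartilage from which a long bone grows in length, and its cells were taken zone by zone with a laser from stained frozen sections of mice of mixed background, with no treatment named. The groups were the resting, proliferative and hypertrophic zones of ethanol-fixed sections at postnatal day 2 (P2) and day 28 (P28), the same zones of xylene-fixed P28 sections, and 1 ethanol-fixed animal at postnatal day 3 (P3). The labels give no sex. SMART-seq2, which copies whole transcripts from very small samples, was used to make the libraries. Counts were added per animal and zone over ethanol libraries of at least 100000 counts, which gave 4 sums for each P2 zone, from 6 animals, and 3 sums for each P28 zone, from 3 animals. Levels are CPM, counts per 1000000 of a library size that the TMM method corrects for the composition of the sum, and animals are named by a letter within their age.

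Aggrecan, the product of Acan, is a large proteoglycan that fills cartilage with negative charge and holds water. Many aggrecan molecules bind 1 strand of hyaluronan, and the link protein encoded by Hapln1 locks each of them in place. Comp, a thrombospondin, and the matrilins Matn1, Matn3 and Matn4 are adaptors that join collagen fibrils to each other and to aggrecan. Lect1 (Cnmd in current annotation) encodes chondromodulin, a glycoprotein of avascular cartilage that inhibits the growth of blood vessels. Fn1 encodes fibronectin, a matrix protein bound by integrins, and Vcan encodes versican, the hyaluronan-binding proteoglycan of loose connective tissue and of mesenchyme before it turns to cartilage. As a resting chondrocyte becomes proliferative and then hypertrophic, its matrix is rebuilt ahead of mineralization and vessel invasion.

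The libraries differed widely in depth and content. Of 51 ethanol libraries at P2 and P28, 26 reached the minimum, and the 21 sums held 108601 to 3347722 counts, of which 9.28% to 92.1% fell on 3 symbols, Rn45s, Lars2 and Glra2. The 6 chondrocyte markers (Col2a1, Col9a1, Col9a2, Col11a1, Sox9 and Acan) were detected in every group, with summed levels of 11954 to 205712 CPM. The 8 hypertrophic markers, Col10a1 among them, summed to 8436 to 111041 CPM in hypertrophic sums and to 46.3 to 8879 CPM in resting sums, the highest of which was the P28 resting sum of animal A. The 4 fat markers were at 0 in every sum, 5 endothelial markers summed to 0 to 312 CPM, 6 tendon and synovium markers to 0 to 169.5 CPM, osteoblast markers to 5.22 to 824 CPM and blood markers to 2.08 to 781 CPM. Some libraries went against their labels. The library labelled P28 proliferative replicate 9 of animal D held 267 Xist and 0 Y-linked counts, while the P28 resting library of the same label held 0 Xist and 76 Y-linked counts. P2 resting replicate 8 (animal G) held 128 Xist and 747 Y-linked counts, and the P3 proliferative library 355 and 311. The xylene library P28 hypertrophic replicate 3 held Col1a1 at 62781 CPM and Col2a1 at 70.3 CPM of its total count, where the other 4 hypertrophic xylene libraries held 8.17 to 40.7 and 39390 to 132456. P2 animal D and also P28 animal B carry plural labels, so either may be a pool. Calls that end without one of these libraries and counts over animal and fixation pairs are given with and without them, while the P3 proliferative values rest on the 1 library named. Zones are captured regions, so fewer cells of a type and less RNA per cell cannot be told apart in any level below.

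**Figure D1:**
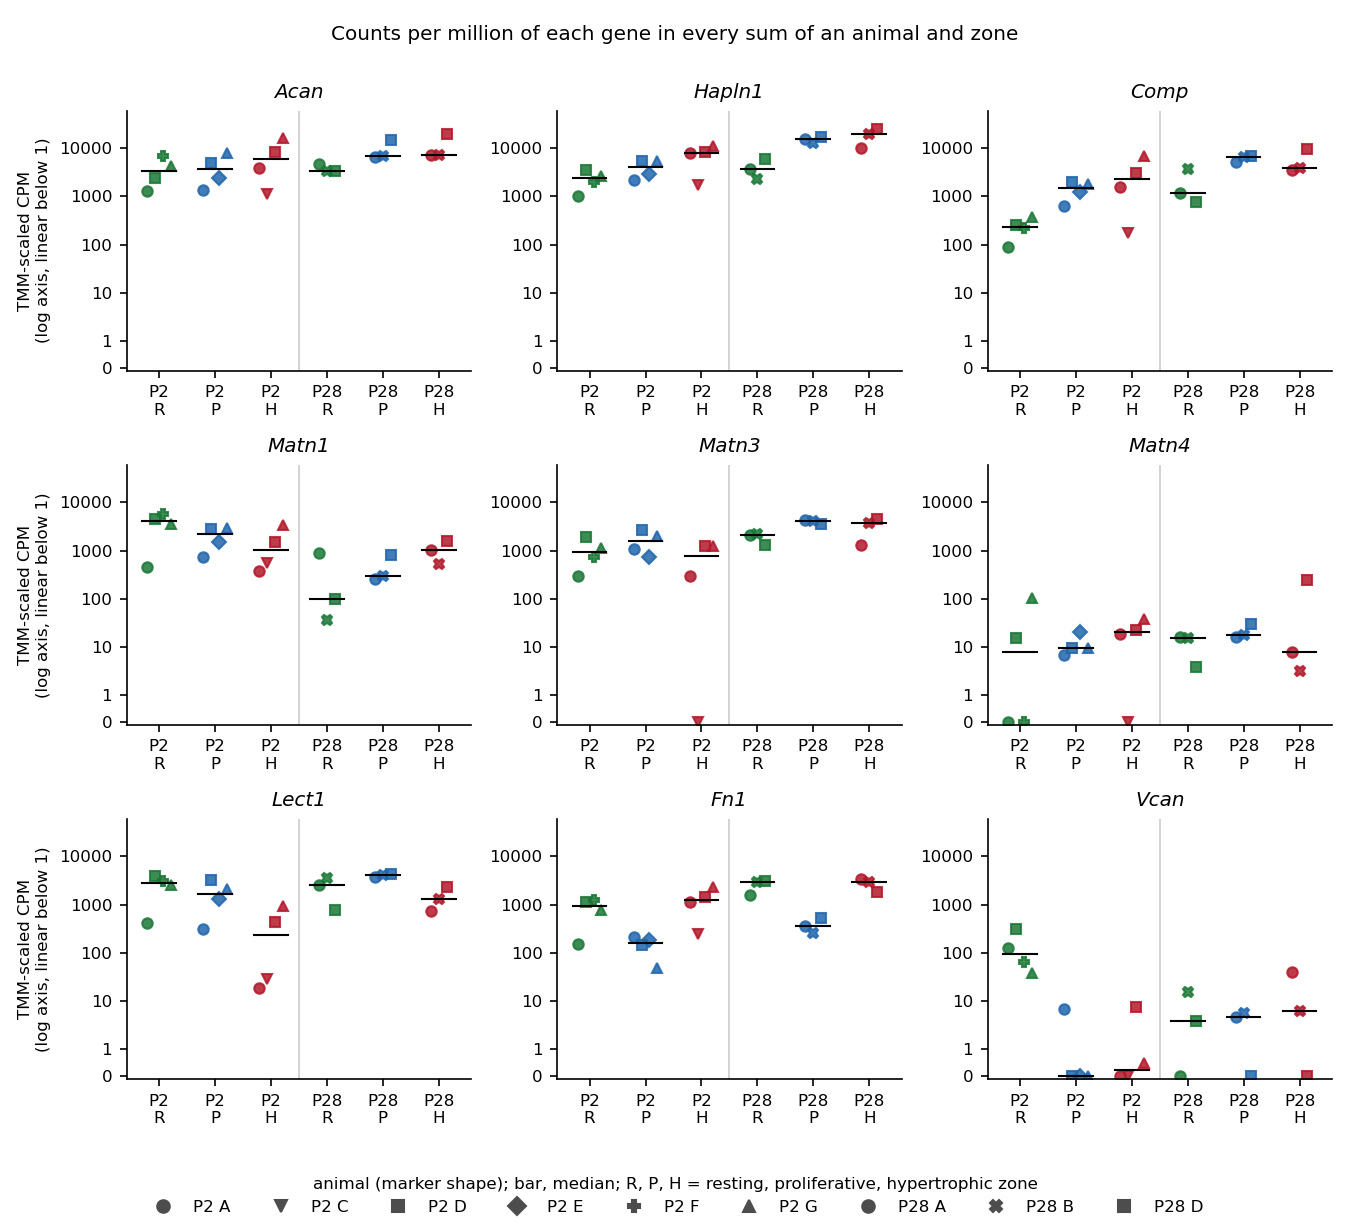
Level of each gene (TMM-scaled CPM, logarithmic axis that is linear below 1) in the 21 sums of an animal and zone at P2 and P28; each point is 1 sum, its shape gives the animal, and the bar is the median. Hapln1 and Comp sit lowest in the resting zone at both ages, Fn1 is low in the proliferative zone, Vcan is high in P2 resting sums, and Matn1 is lower in most P28 than P2 resting and proliferative sums.

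Acan, which lies on chromosome 7 (chr7:79053483-79115099, plus strand, GRCm38), was present in all 68 libraries and had its lowest mean in the resting zone at both ages. The 250 bases before its RefSeq start (build GRCm38.p6, chr7:79052976-79053225, plus strand) are shown because Acan, Hapln1 and Comp moved together over the sums, and Acan is the one of them for which a window outside annotated exons was at hand; capitals mark the GC box GGGCGG or its reverse complement, and 2 of its 3 matches overlap.
Acan: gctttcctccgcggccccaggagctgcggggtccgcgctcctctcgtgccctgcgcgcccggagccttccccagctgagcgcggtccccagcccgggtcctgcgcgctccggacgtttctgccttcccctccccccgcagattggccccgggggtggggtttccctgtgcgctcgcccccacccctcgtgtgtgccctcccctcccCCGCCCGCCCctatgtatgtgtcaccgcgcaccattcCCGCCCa
At P2 its level was 1309.6, 2399, 6962 and 4210.2 CPM in the resting sums of animals A, D, F and G. It was 3833, 1125, 8293 and 16487 CPM in the hypertrophic sums of animals A, C, D and G. The hypertrophic level was above the resting one in each of the 3 P2 animals with both zones, although the groups overlapped. The fitted difference, resting against hypertrophic within animals, was -1.76 ± 0.46 log2 units (SE; adjusted p = 0.0067, edgeR quasi-likelihood test). It missed the threshold without animal A, D or G (adjusted p = 0.0944, 0.264 and 0.212) and without P2 resting replicate 8 alone (adjusted p = 0.105). At P28 Acan was 4667, 3348 and 3382 CPM in resting sums (animals A, B and D) and 7165, 7067 and 20037 CPM in hypertrophic sums. These groups did not overlap, as in 13% of all genes tested, and the difference of -1.37 ± 0.46 did not pass the test (adjusted p = 0.101). Proliferative sums lay between, at 1375 to 8042 CPM at P2 and 6612 to 14453 CPM at P28. In CPM of the counts outside Rn45s, Lars2 and Glra2, the P28 resting and hypertrophic groups overlapped, at 12060 in resting animal A and 11120 in hypertrophic animal B.

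Hapln1 (chr13:89539796-89611652, plus strand) had the same order of zones with a wider gap. At P2 it was 1033, 3606, 2030.0 and 2690.2 CPM in resting sums (A, D, F and G) and 7789, 1716, 8381 and 10967 CPM in hypertrophic sums (A, C, D and G). All hypertrophic sums but that of animal C exceeded every resting sum, and the difference was -2.07 ± 0.46 log2 units (adjusted p = 0.00057; 0.156 without animal A). At P28 the resting sums held 3646, 2328 and 5974 CPM, the proliferative sums 15413, 12729 and 17019 CPM and the hypertrophic sums 9896, 19193 and 24984 CPM (A, B and D). The resting sums were below all others of that age, by -2.20 ± 0.46 against hypertrophic (adjusted p = 0.00044; 0.20 without animal B) and by -1.9997 ± 0.45 against proliferative (adjusted p = 0.0050). The last call was lost without the library labelled P28 proliferative replicate 9 (adjusted p = 0.125), without P28 animal A or B (adjusted p = 0.0792 and 0.383), without P2 animal D (adjusted p = 0.123), and under RLE scaling (-1.35, adjusted p = 0.255). Both ages share a common estimate of the spread in the zone fit, so leaving out a P2 animal can move a P28 call. RLE scaling in place of TMM moved the median of all genes in that comparison from -0.81 to -0.24. Relative to that median Hapln1 stood at -1.19 with TMM and -1.11 with RLE. Animal and fixation pairs, here and below, were compared on counts relative to those outside Rn45s, Lars2 and Glra2, without TMM scaling. With the P3 animal and the xylene sums counted, Hapln1 was lower in resting than in proliferative samples in 9 of 9 such pairs. It was lower than in hypertrophic samples in 9 of 9. Without the 4 libraries that stand apart these were 7 of 7 and 8 of 8.

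Comp (chr8:70373558-70382066, plus strand) was lowest in the resting zone, and its P2 difference from the hypertrophic zone exceeded those of Acan, Hapln1 and the matrilins. In human, mutations of COMP and of MATN3 cause dysplasias of the growing epiphysis. Its P2 level was 90.2, 252, 219 and 367 CPM in resting sums (A, D, F and G) and 636, 1983, 1220.4 and 1836 CPM in proliferative sums (A, D, E and G). The hypertrophic sums held 1565, 173, 3028 and 6806 CPM (A, C, D and G). Every proliferative sum exceeded every resting sum. The resting zone was lower than the proliferative zone by -2.73 ± 0.53 log2 units (adjusted p = 0.00041) and than the hypertrophic zone by -3.99 ± 0.56 (adjusted p = 8.0e-10). The second of these calls was made in 23 of 23 alternatives, and the first was lost without P2 animal A or D. At P28 Comp was 1175, 3779 and 769.6 CPM in resting sums and 5171, 6679 and 7026 CPM in proliferative sums (A, B and D). Those groups did not overlap either, as in 17.3% of all genes tested, and the fitted difference was -1.84 ± 0.53 (adjusted p = 0.0688). In CPM of the counts outside Rn45s, Lars2 and Glra2 they overlapped, at 9003 in resting animal B and 8645 in proliferative animal D. Within single sums, the ratio of Comp to Acan counts per exonic base was 0.0971 to 0.324 in P2 resting sums and 0.706 to 1.55 in P2 proliferative sums, which did not overlap. At P28 it was 0.704 to 3.49 in resting and 1.503 to 2.96 in proliferative sums, which overlapped. No library scaling touches this ratio.

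In P2 resting against proliferative sums, Comp was the 1 member of 9 called, beside 0.259% of the 6958 genes tested. In P2 resting against hypertrophic sums 5 of 9 members were called (Acan, Hapln1 and Comp lower, Lect1 and Vcan higher in resting), beside 3.77% of genes. At P28, 2 of 9 were called in resting against proliferative sums (Hapln1 lower, Fn1 higher), beside 0.561%, and 2 of 9 in resting against hypertrophic sums (Hapln1 and Matn1 lower), beside 1.77%. Groups without overlap were common over all 6958 genes. At P2 the shares were 4.04% in resting against proliferative, 5.45% in hypertrophic against proliferative and 12% in resting against hypertrophic sums. At P28 they were 17.3%, 19.2% and 13%. Between ages they were 14.1%, 7.13% and 4.5% in resting, proliferative and hypertrophic sums.

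**Figure D2:**
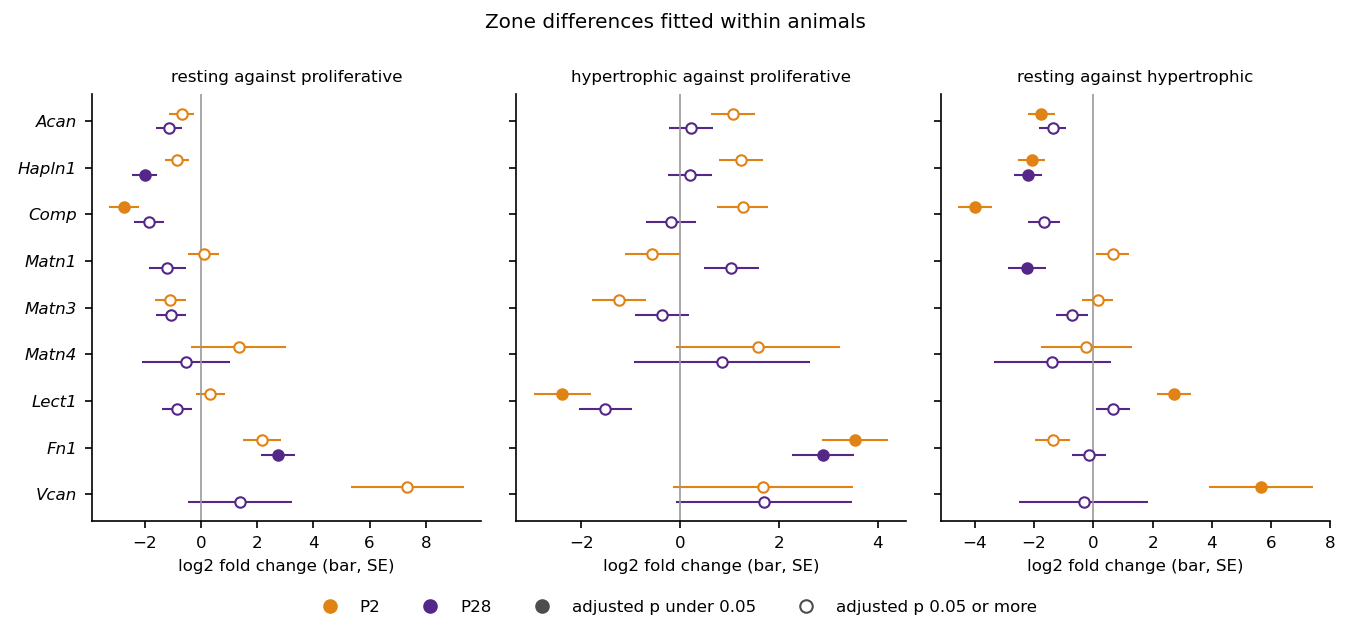
Zone differences of the 9 genes (log2 fold change, bars are SE) fitted within animals over the 21 sums, at P2 and P28; filled points have an adjusted p under 0.05. Acan, Hapln1 and Comp lie below 0 in both resting comparisons at both ages, and Fn1 lies at 3.55 and 2.89 in hypertrophic against proliferative at P2 and P28.

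The matrilins differed from each other. Matn1 (chr4:130944385-130955475, plus strand), the first matrilin described in cartilage, was the member that fell with age in the proliferative zone. The 250 bases before its start (chr4:130944135-130944384, plus strand) are given for that reason; capitals mark the same GC box.
Matn1: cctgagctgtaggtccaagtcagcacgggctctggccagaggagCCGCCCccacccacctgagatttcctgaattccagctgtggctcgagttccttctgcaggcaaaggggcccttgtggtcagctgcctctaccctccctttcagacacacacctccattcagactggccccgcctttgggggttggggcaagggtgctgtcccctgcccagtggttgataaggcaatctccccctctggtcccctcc
Its level was 746, 2822, 1492 and 2998 CPM in P2 proliferative sums (A, D, E and G) and 256, 293 and 821 CPM in P28 proliferative sums (A, B and D). The highest P28 sum exceeded the lowest P2 sum, and no other values overlapped. With the deposit set of the libraries as a term, P28 was lower by -2.47 ± 0.59 log2 units (adjusted p = 0.0075). The call was lost without P2 animal D or E or P28 animal A or B (adjusted p = 0.0741, 0.0897, 0.841 and 0.601). Sex was uneven over the ages: 8 of 12 P2 sums and 2 of 9 P28 sums of all zones, which count an animal more than once, held more Y-linked than Xist counts. Of the proliferative sums, 2 of 4 at P2 did so, while all 3 at P28 held more Xist counts. The P28 sum of animal D did so through replicate 9, whose counts go against its label. The part of sex in this difference was not tested.

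In the resting zone Matn1 was 454, 4573, 5725 and 3585 CPM at P2 (A, D, F and G) and 873, 35.5 and 97.2 CPM at P28 (A, B and D). The P28 sum of animal A, which holds 8879 CPM of hypertrophic markers where the sums of B and D hold 872 and 828 CPM, was above the lowest P2 sum. The age difference of -3.20 ± 1.10 did not pass the test (adjusted p = 0.240); without P28 animal A it was -5.83 (adjusted p = 0.0016), and without P2 animal A -4.16 (adjusted p = 1.2e-05). In hypertrophic sums Matn1 was 370.0, 548, 1486 and 3459 CPM at P2 (A, C, D and G) and 1012, 524 and 1574 CPM at P28. At P28 the resting zone was lower than the hypertrophic zone by -2.23 ± 0.65 (adjusted p = 0.0372), a call made in 5 of 23 alternatives. It was lost without P2 animal A, C, D or G (adjusted p = 0.0555 to 0.166), without P28 animal B or D (-1.44 and -1.20), and without the library labelled P28 proliferative replicate 9 or P2 resting replicate 8 (adjusted p = 0.0791 and 0.0628). Without P28 animal A the difference was -4.06 (adjusted p = 7.2e-05).

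Matn3 (chr12:8947929-8972028, plus strand) was called in no comparison. At P2 it was 293, 1884, 742 and 1109.6 CPM in resting sums and 1101, 2602, 746 and 2033 CPM in proliferative sums (A, D, F, G and A, D, E, G). At P28 it was 2122, 2165.8 and 1309.9 CPM in resting sums, 4337, 3998 and 3468 CPM in proliferative sums and 1285, 3742 and 4538 CPM in hypertrophic sums (A, B and D). It was lower in resting than in proliferative samples in 9 of 9 animal and fixation pairs (6 of 7 without the 4 libraries that stand apart), with fitted differences of -1.09 ± 0.54 at P2 and -1.08 ± 0.53 at P28 (adjusted p = 1.0 and 0.455). The P2 hypertrophic sum of animal C listed 0 counts; that sum holds 20032 counts outside the 3 heavy symbols. Matn4 (chr2:164389393-164405160, minus strand), which overlaps Rbpjl on the opposite strand, was scarce. Its sums held 0 to 244 CPM, with the highest values in the P28 hypertrophic sum of animal D (99 counts) and the P2 resting sum of animal G (105 CPM, 587 counts). The other sums held at most 78 counts each, and none of its zone or age tests passed.

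Within single sums the ratio of Matn1 to Matn3 counts per exonic base was 1.02 to 11.6 in the 11 P2 sums where Matn3 was counted and 0.0247 to 1.19 in the 9 P28 sums. The P28 hypertrophic sum of animal A (1.19) was the one above any P2 sum. Medians were 4.26, 1.93 and 1.84 at P2 and 0.112, 0.110 and 0.523 at P28 in resting, proliferative and hypertrophic sums.

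**Figure D3:**
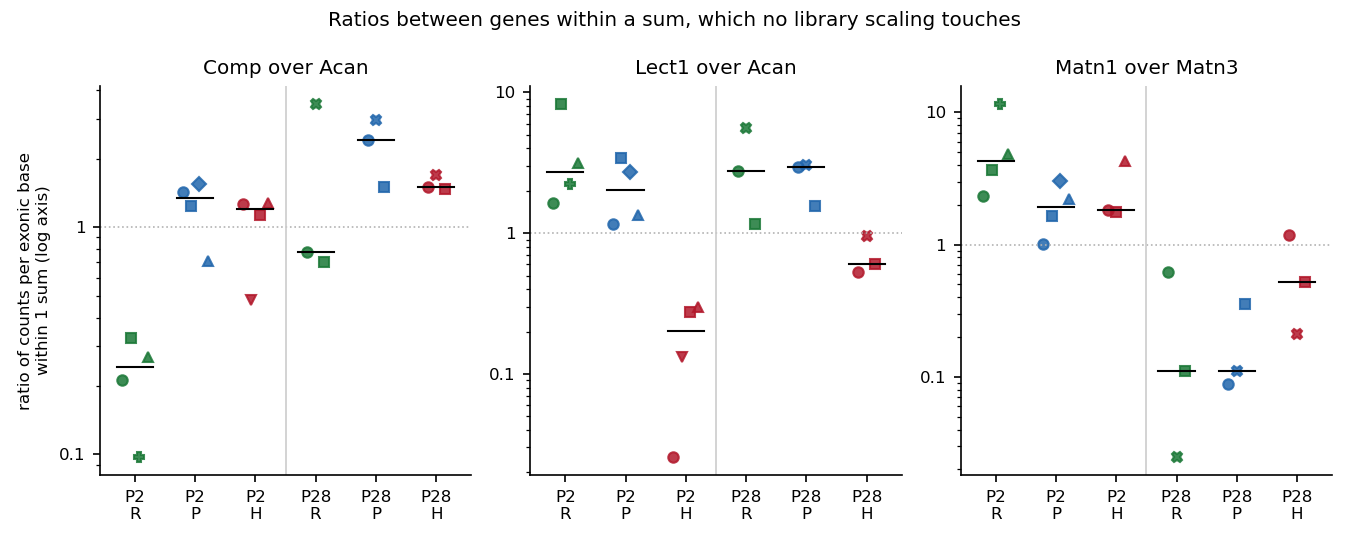
Ratio of counts per exonic base between 2 genes within each sum (logarithmic axis) at P2 and P28 in the resting (R), proliferative (P) and hypertrophic (H) zones; point shapes are animals as in the plot of levels and bars are medians. Comp over Acan is lowest in P2 resting sums (0.0971 to 0.324), Lect1 over Acan is lowest in hypertrophic sums at both ages, and Matn1 over Matn3 is above 1 in all 11 P2 sums shown.

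Lect1 (Cnmd, chr14:79637690-79662170, minus strand) was the cartilage glycoprotein that fell in the hypertrophic zone. The 250 bases before its start (chr14:79662184-79662433, minus strand) are shown because it was called lower in the hypertrophic zone, and hold none of the motifs searched.
Lect1: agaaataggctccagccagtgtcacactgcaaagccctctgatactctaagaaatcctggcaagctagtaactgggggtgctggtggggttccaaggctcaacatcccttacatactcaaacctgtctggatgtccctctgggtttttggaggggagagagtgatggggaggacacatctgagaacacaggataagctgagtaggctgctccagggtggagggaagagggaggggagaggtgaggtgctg
At P2 it was 416, 3867, 3017 and 2584 CPM in resting sums (A, D, F and G) and 308, 3253, 1281 and 2094 CPM in proliferative sums (A, D, E and G). The hypertrophic sums held 19.0, 28.8, 441 and 949 CPM (A, C, D and G). Animal A was lowest in all 3 zones and the groups overlapped, yet within each animal with both zones the hypertrophic sum was the lower one. The hypertrophic zone differed from the proliferative zone by -2.38 ± 0.58 log2 units (adjusted p = 0.0048). Resting sums exceeded hypertrophic sums by 2.72 ± 0.58 (adjusted p = 0.00039). Both calls were lost without P2 animal A or D. At P28 it was 3754, 4145 and 4347 CPM in proliferative sums and 739, 1298 and 2352 CPM in hypertrophic sums (A, B and D). These groups did not overlap, as in 19.2% of all genes tested, and the difference was -1.51 ± 0.54 (adjusted p = 0.184). Over all animal and fixation pairs the hypertrophic value was lower than the proliferative one in 9 of 9, and in 8 of 8 without the 4 libraries that stand apart. The ratio of Lect1 to Acan counts per exonic base was 0.0255 to 0.297 in P2 hypertrophic sums and 1.15 to 3.40 in P2 proliferative sums, and 0.532 to 0.948 against 1.55 to 3.06 at P28.

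Fn1 (chr1:71585520-71653200, minus strand), which overlaps the antisense gene Apol7d, had its low point in the proliferative zone at both ages. At P2 it was 156, 1121, 1223 and 763 CPM in resting sums (A, D, F and G) and 212, 143, 183 and 48.5 CPM in proliferative sums (A, D, E and G). The hypertrophic sums held 1129, 245, 1407 and 2302 CPM (A, C, D and G). Each hypertrophic sum was above each proliferative sum, by 3.55 ± 0.67 log2 units in the fit (adjusted p = 3.4e-05; 2.72 and 0.112 without animal G). In that comparison 2 of 9 members were called, Fn1 and Lect1, beside 2.31% of genes tested. At P28 Fn1 was 1561, 2987 and 3063 CPM in resting sums, 355, 261 and 519 CPM in proliferative sums and 3333, 2981 and 1868 CPM in hypertrophic sums (A, B and D). Both outer zones were above the proliferative zone in all 3 animals. The difference was 2.89 ± 0.63 for hypertrophic against proliferative (adjusted p = 0.0016), where Fn1 was the 1 member of 9 called, beside 1.12% of genes. It was 2.74 ± 0.62 for resting against proliferative (adjusted p = 0.0051). Without P28 animal A or B the resting call was lost (adjusted p = 0.0792 and 0.412), as was the hypertrophic call (adjusted p = 0.145 and 0.219). At P2 resting exceeded proliferative sums by 2.17 ± 0.67 (adjusted p = 0.206), and by 3.39 without animal A (adjusted p = 0.0292). Hypertrophic samples exceeded proliferative samples in 9 of 9 animal and fixation pairs, and in 8 of 8 without the 4 libraries that stand apart. Single markers of other cells were called beside Fn1 in hypertrophic against proliferative sums. Phex was the only one called of the 7 osteoblast markers, at 7.29 ± 1.48 at P2 and 5.97 ± 1.51 at P28 (adjusted p = 0.00021 and 0.0127). The globin Beta-s was the only one called of the 8 blood markers in the table, at 4.47 ± 1.29 at P2 (adjusted p = 0.0308). The 7 osteoblast markers summed to 81.2 to 808 CPM in P2 hypertrophic and 5.22 to 205 CPM in P2 proliferative sums, and to 72.3 to 824 against 27.1 to 174 CPM at P28, with Bglap2 at 0 in all 4 groups. Bglap was at 0 in 3 of these groups, all but P28 proliferative, and Dmp1 in both P28 groups. The blood markers in the table summed to 19.7 to 764 against 2.08 to 67.8 CPM at P2 and 7.40 to 306 against 2.16 to 21.2 CPM at P28, with Hba-a1 and Hba-a2 at 0. Ptprc and Lyz2 were at 0 in P2 hypertrophic sums, and Lyz2 and Cd68 in P28 hypertrophic sums. Cd68 and S100a8 were at 0 in the proliferative sums of both ages. The part of these markers in the Fn1 result was not tested.

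Vcan (chr13:89655312-89742509, minus strand) lies next to Hapln1 on chromosome 13. Both genes are read towards each other, with 43659 bases and no annotated gene between them, and the Pearson r of their log2 levels was -0.40 over the 21 sums, which share animals and zones. The 250 bases before the start of Vcan (chr13:89742513-89742762, minus strand) are shown for comparison with Acan, its relative; capitals mark the GC box.
Vcan: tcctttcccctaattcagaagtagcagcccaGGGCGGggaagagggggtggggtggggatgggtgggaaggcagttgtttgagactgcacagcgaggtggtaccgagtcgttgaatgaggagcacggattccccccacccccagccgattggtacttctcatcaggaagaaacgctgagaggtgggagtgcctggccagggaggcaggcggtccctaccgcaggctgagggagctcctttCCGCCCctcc
Its 4 P2 resting sums held 126, 311, 65.9 and 38.8 CPM (A, D, F and G), from 46, 343, 146 and 217 counts. The P2 proliferative sums held 1 count in animal A and 0 in D, E and G, and the hypertrophic sums 0, 0, 3 and 1 counts (A, C, D and G). No resting sum overlapped the other zones. Pooled over the group, the resting level was 366 times the proliferative level (95% interval 65.5 to 14481, from 752 against 1 count; 122 with the proliferative count set to the floor of 3) and 54.2 times the hypertrophic level (21.1 to 200, from 752 against 4 counts), with intervals that cover counting error only. In the fit, resting exceeded hypertrophic sums (adjusted p = 0.0371), while resting against proliferative sums missed the threshold (adjusted p = 0.0752), as in most alternatives. The second comparison passed without P28 animal D (adjusted p = 0.0078), with each age fitted alone (adjusted p = 0.0018) and with DESeq2 (adjusted p = 0.0077). The call against hypertrophic sums was lost without P2 animal A, D or G or P28 animal B and without P2 resting replicate 8 alone (adjusted p = 0.264).

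The 7 perichondrium and fibroblast markers (Col1a1, Col1a2, Col3a1, Dcn, Postn, Pdgfra and Lum) were called in part beside Vcan: Dcn and Col1a2 in P2 resting against hypertrophic sums (6.73 ± 1.07 and 3.35 ± 0.85), and Dcn and Col3a1 against proliferative sums (6.08 ± 0.99 and 5.27 ± 1.32). The 7 summed to 929.6 to 6396 CPM in P2 resting sums, 353 to 971 CPM in P2 proliferative sums and 266 to 1687 CPM in P2 hypertrophic sums. The P2 hypertrophic sum at 1687 CPM and the highest ethanol P28 sum, 2048 CPM in hypertrophic animal D, held 0 counts of Vcan. The P2 hypertrophic sums at 0 were those of animals A and C. A floor of 3 counts stood there at 28.5 and 43.3 CPM, beside 38.8 CPM in the lowest P2 resting sum. The xylene library P28 hypertrophic replicate 3, with Col1a1 at 62781 CPM, held 610 Vcan counts (228 CPM of its total count). The other hypertrophic xylene libraries held 0 to 42 counts. All 7 markers were detected in P2 resting sums and Pdgfra was at 0 in P2 hypertrophic sums. Their part in the Vcan difference was not tested. In P28 resting sums Vcan held 0, 3 and 1 counts (A, B and D) and the same markers summed to 144 to 776 CPM. The pooled Vcan level was 13.1 times higher in P2 than in ethanol P28 resting sums (95% interval 5.08 to 48.0), and the age test did not pass (adjusted p = 0.174). Of the xylene P28 resting libraries that reached the minimum, replicate 3 (animal D) held 98 Vcan counts, 65.3 CPM of its total count. Replicate 4 (animal E) held 0.

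**Figure D4:**
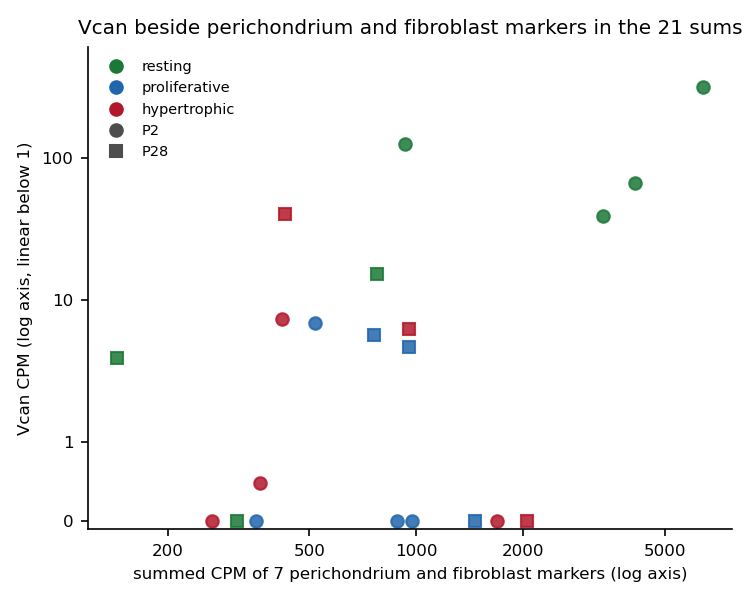
Vcan level (CPM, logarithmic axis that is linear below 1) against the summed level of 7 perichondrium and fibroblast markers (CPM, logarithmic axis) in the 21 sums; colours are zones, circles P2 and squares P28. The 4 P2 resting sums hold 38.8 to 311 CPM of Vcan, and 929.6 to 6396 CPM of the markers.

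Between the ages, the proliferative zone held the called members. There 3 of 8 tested members passed, beside 0.679% of genes: Matn1 fell, and Hapln1 and Comp rose. Hapln1 was 2161, 5329, 2983 and 5332 CPM at P2 (A, D, E and G) and 12729 to 17019 CPM at P28, which did not overlap, a rise of 1.83 ± 0.36 log2 units (adjusted p = 0.00019). Comp rose by 2.05 ± 0.43 (adjusted p = 0.0010), from 636 to 1983 CPM at P2 to 5171 to 7026 CPM at P28, again with no overlap. The Hapln1 call was lost without P2 animal E or P28 animal A (adjusted p = 0.121 and 0.123). The Comp call was lost without P2 animal E or P28 animal A or B (adjusted p = 0.0899, 0.113 and 0.137) and without the library labelled P28 proliferative replicate 9 (1.67, adjusted p = 0.104). Of the 8 hypertrophic markers, Col10a1, Alpl and Pth1r rose in the same comparison. The 8 summed to 534 to 1058 CPM in P2 and 2396 to 6929.6 CPM in P28 proliferative sums, with Mmp13 at 0 in both, and the Col10a1 difference was 7.37 log2 units (adjusted p = 6.5e-19). Their part in the 3 results was not tested. With RLE scaling the median of all genes in this comparison moved from 0.04 to -0.09. Acan, Matn3, Lect1 and Fn1 differed by 1.04 ± 0.38, 1.22 ± 0.45, 1.17 ± 0.45 and 1.39 ± 0.93 and did not pass.

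In the resting zone 0 of 8 tested members were called with edgeR, beside 0.872% of genes. There 4 had an unadjusted p under 0.05, and DESeq2 called 2, Comp and Vcan. Shares of all genes by unadjusted p or by DESeq2 are not set beside such counts, here or below. No excess among the members can be read from them. Comp was 90.2 to 367 CPM in P2 and 769.6 to 3779 CPM in P28 resting sums, which did not overlap, as in 14.1% of all genes. Its difference of 3.23 ± 0.86 (adjusted p = 0.0730) passed without P2 animal A or P28 animal D (adjusted p = 0.0440 and 0.0097). In the hypertrophic zone 0 of 7 tested members were called with edgeR, beside 0.102% of genes; 2 had an unadjusted p under 0.05 and DESeq2 called 0. Tests of whether a zone difference itself changed with age called no member. For resting against hypertrophic sums 0 of 9 passed beside 0.273% of genes, with 4 at an unadjusted p under 0.05 and 1 called by DESeq2. For resting against proliferative sums 0 of 9 passed beside 0.144%, with 1 at an unadjusted p under 0.05 and 0 called by DESeq2. For hypertrophic against proliferative sums 0 of 9 passed beside 0.0%, with 2 at an unadjusted p under 0.05 and 0 called by DESeq2. The largest of the well-counted members was Matn1 in resting against hypertrophic sums, at -2.89 ± 0.86 (adjusted p = 0.132). In TMM-scaled CPM it was higher in resting in all 3 P2 animals with both zones and lower in all 3 P28 animals. In CPM of the counts outside the 3 heavy symbols, P28 animal A went the other way, at 2256 in its resting and 1983 in its hypertrophic sum. Without P28 animal A the change with age was -4.72 (adjusted p = 0.00073). Comp differed there by 2.34 ± 0.74 (adjusted p = 0.185), and by 3.35 without P28 animal D (adjusted p = 0.0031).

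Xylene-fixed P28 sections gave 6 sums from 2 animals, D and E, of which D is shared with the ethanol set by label. Resting against hypertrophic sums called 3 of 9 members, beside 1.46% of genes: Hapln1 at -2.14 ± 0.57, Comp at -2.59 ± 0.60 and Matn1 at -5.67 ± 1.18 (adjusted p = 0.0335, 0.0072 and 0.0354). Hypertrophic against proliferative sums called 1 of 9, Fn1 at 3.19 ± 0.66 (adjusted p = 0.0054), beside 0.453%. Resting against proliferative sums called 0 of 9 with edgeR, beside 0.34%, with 5 at an unadjusted p under 0.05 and 1 called by DESeq2, both without the share over all genes. Left out of these sums, the hypertrophic library replicate 3 moved the 3 first differences to -2.65, -3.06 and -6.12, and Fn1 to 3.19, all still called. In CPM of the counts outside the 3 heavy symbols, Matn1 was 139.97 and 9.26 in the xylene resting sums of D and E, and 1342 (2269.7 without hypertrophic replicate 3) and 2831 in the hypertrophic sums. The P3 animal, 1 library per zone and no test, held Comp at 452, 3964 and 4772 and Matn1 at 5478, 3637 and 2709 in resting, proliferative and hypertrophic cells on the same scale. Its Vcan was 569.6, 19.8 and 62.1 and its Fn1 was 1206, 255 and 1603, so that Comp was lowest in the resting zone and Fn1 in the proliferative zone, as in the P2 sums.

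Per kilobase of exon, the order of the members changed across zones. Matn1 and Lect1 led the P2 resting mean levels at 1791 and 1706 CPM per kilobase, above Acan at 498 and Hapln1 at 409. In P28 proliferative sums Lect1, Hapln1 and Comp stood at 2819, 2634 and 2604, and Matn1 at 228. In hypertrophic sums Hapln1 and Comp led at both ages, at 1262 and 1197 at P2 and 3154 and 2326 at P28. Matn4 and Vcan were the lowest 2 in all 6 groups. When the 6 group means of a gene were ordered, the values of neighbouring groups overlapped in 42 of 45 cases, with no share over all genes computed for this ordering. The exceptions were Hapln1 between P28 proliferative and P2 hypertrophic sums, Comp between P2 proliferative and P2 resting sums, and Fn1 between P28 and P2 proliferative sums. In CPM of the counts outside the 3 heavy symbols the Fn1 groups overlapped, at 489 in P28 animal B and 604 in P2 animal A.

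Over the 21 sums, which share animals and zones, log2 levels of Hapln1 and Comp had a Pearson r of 0.86, Acan and Hapln1 0.81, Acan and Comp 0.78, and Matn3 and Lect1 0.77. The 36 pairs among the members had a median r of 0.25 (range -0.52 to 0.86), and all pairs of the 6958 genes a median of 0.13. Comp and Vcan were the most opposed pair, at -0.52. The 2 other genes most like each member were Hspg2 (0.91) and Eef2 (0.87) for Acan, Serinc5 (0.90) and 3110079O15Rik (0.87) for Hapln1, 3110079O15Rik (0.91) and Slc44a2 (0.87) for Comp, and Cd9 (0.94) and Mia (0.92) for Matn3. They were Fmod (0.94) and Tmem258 (0.91) for Lect1, Phactr2 (0.80) and the Y-linked Eif2s3y (0.76) for Matn1, Tspan13 (0.79) and Pam (0.77) for Fn1, Dchs1 (0.80) and Gas1 (0.79) for Vcan, and S100a16 (0.72) and 1700123O20Rik (0.71) for Matn4.

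**Figure D5:**
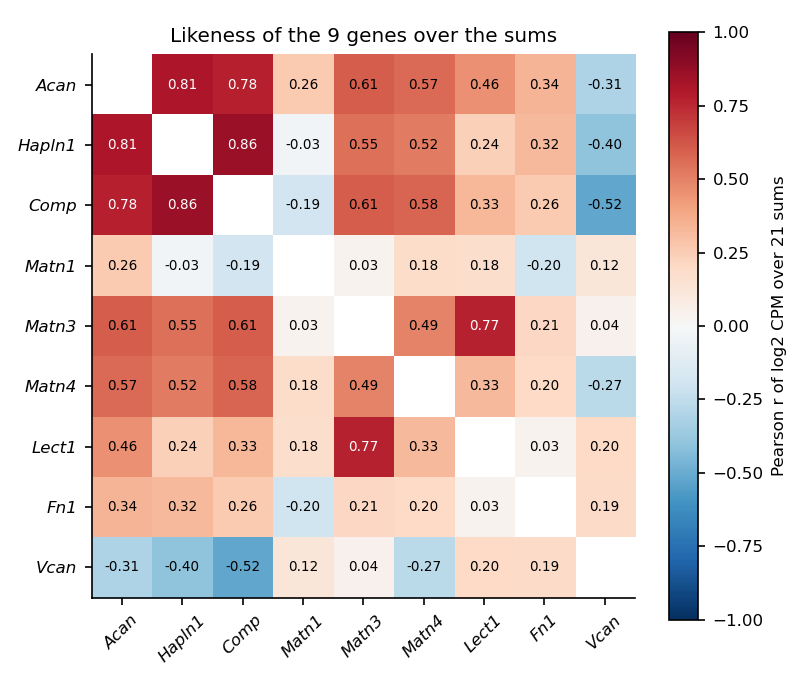
Pearson r of log2 CPM between the 9 genes over the 21 sums, from -1 (blue) to 1 (red). Acan, Hapln1 and Comp form the block of high values (0.78 to 0.86), and the values of Vcan against them are below 0 (-0.31 to -0.52).

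Other genes of the same matrix were called in part. Of 33 further adaptors listed, 17 were tested over zones. At P2 2 fell in hypertrophic against proliferative sums, where 2.31% of all genes were called: Smoc1, a calcium-binding matrix protein, from 89.4 ± 77.8 CPM (SD, n = 4) to 0 counts in all 4 hypertrophic sums, and Fbln7 from 310 ± 154 to 11.4 ± 12.3 CPM. In resting against hypertrophic sums Smoc1 was higher and Hspg2, the proteoglycan perlecan, lower (-2.69 ± 0.60, adjusted p = 0.00083), 2 of 17 beside 3.77% of all genes. With age, Sparc rose in the proliferative zone (2.61 ± 0.36, adjusted p = 7.4e-10) and Vit in the resting zone (6.38 ± 1.44, adjusted p = 0.0177), each 1 of 16 tested, beside 0.679% and 0.872% of all genes. The other 8 ethanol comparisons called none of them. The list's median difference ran beside that of all genes in P2 hypertrophic against proliferative sums, at -0.85 against -0.36.

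Among 15 aggrecan-cleaving and related proteases with their inhibitor, 6 were tested over zones. At P2 3 were called in hypertrophic against proliferative and 2 in resting against hypertrophic sums (Adamts1 and Mmp2), beside 2.31% and 3.77% of all genes. At P28 1 and 2 were called in these comparisons, beside 1.12% and 1.77%. Adamts1, an aggrecanase, was 3.76 ± 4.39 CPM in P2 proliferative and 135 ± 94.7 CPM in P2 hypertrophic sums (n = 4; adjusted p = 0.0334), and Timp3, an inhibitor of such enzymes, was 77.6 ± 68.7 and 384 ± 263 CPM (adjusted p = 0.0224). Mmp2 fell in the same comparison (-4.19 ± 1.12, adjusted p = 0.0148). At P28 Timp3 rose again in the hypertrophic zone, from 97.2 ± 66.98 to 1656 ± 453 CPM (n = 3; adjusted p = 0.00067). Adamts1 was at 0 counts in all 3 P28 resting sums and at 161 ± 89.1 CPM in hypertrophic sums (adjusted p = 0.0063). Htra1, a secreted protease, rose with age in the resting zone, from 1.95 ± 2.41 to 265 ± 224 CPM (n = 4 and 3; adjusted p = 0.0014), beside 0.872% of all genes.

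Of 15 hyaluronan and link genes only 3 were tested over zones, and Cd44, a hyaluronan receptor, was called once, beside 3.77% of all genes: 0.908 ± 1.82 CPM in P2 resting and 59.2 ± 88.5 CPM in P2 hypertrophic sums (adjusted p = 0.0362). Of 9 fibronectin receptors and integrin partners 6 were tested, and Sdc4 alone was called, lower in P28 hypertrophic than proliferative sums (-3.51 ± 0.90, adjusted p = 0.0137), beside 1.12% of all genes. All 6 collagen partners were tested. Col2a1 and Col11a1 rose with age in the proliferative zone (1.62 ± 0.26 and 1.17 ± 0.33, adjusted p = 2.3e-07 and 0.0487), 2 of 6 beside 0.679% of all genes. Col11a1 was lower in P28 resting than proliferative sums (-1.70 ± 0.42, adjusted p = 0.0226), and the Col9a1 difference between resting and hypertrophic sums changed with age (-2.46 ± 0.64, adjusted p = 0.0407), each 1 of 6, beside 0.561% and 0.273%. Of Sox5, Sox6 and Sox9, the transcription factors that drive cartilage matrix genes, Sox5 was called once, higher in P2 resting than hypertrophic sums (3.88 ± 1.13, adjusted p = 0.0229), beside 3.77% of all genes.

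In the 250 bases before the start, promoters of 7 members were at hand, 8 windows in all, since Matn4 has a pair. The GC box GGGCGG, searched on both strands, was in 5 of the 8 windows and in 32.7% of the 32851 windows of all genes. The TATA box TATAAA and the SOX cores ACAAAG and ACAATG were in 0 of the 8 and in 12.4%, 16.5% and 10.7% of all windows.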

How the data were processed

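The deposited table holds raw read counts per gene symbol, made by the authors with cutadapt, STAR 2.5.2b and featureCounts 1.5.3 of the Subread package on mm10, per the submitters' processing notes. Annotation and strandedness of the counting: not given in the sources used here. Columns that share a title were added as repeat runs. Ethanol libraries of at least 100000 counts were summed per animal and zone, animals being taken from the labels. The 3 symbols Rn45s, Lars2 and Glra2 stayed in the fits. Counts were tested with edgeR 4.0.16 in R 4.3.3 (TMM scaling, its filter on low counts, robust quasi-likelihood F tests, Benjamini-Hochberg adjustment over all genes tested, threshold 0.05), on code tested on simulated data. Zones were compared with animal as a block (8 residual degrees of freedom). Ages were compared within each zone, adjusting for deposit set (4), and xylene sums apart (2). The pairing of zones comes from the labels, with both label endings of P28 animal A taken as the same animal. Over 18 pairs of sums of an animal, deviations from the group means had a median r of 0.07 (range -0.0036 to 0.19). SE is the log2 fold change over the root of F. P-values of zone tests measure how far zone differences vary from animal to animal, and those of age tests the spread between animals. Some animals may be pools. The ethanol zone fit holds both ages, which share a common estimate of the spread, so leaving out an animal can move calls at the other age. P2 animals C, E and F entered with a single zone each, which their block absorbs. The P2 zone differences therefore rest on animals A, D and G. Alternatives were RLE scaling, DESeq2 1.42.0, other minimums and filters, no block, single libraries and each animal left out. The 95% intervals of pooled ratios are exact and cover counting error only. The 9 genes and all lists were chosen with earlier results of these data known. Named list genes are those past the threshold. Locations come from GENCODE, promoters from RefSeq (GRCm38.p6). Libraries below the minimum and the P3 animal entered no test.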

Additional observations from a re-analysis of the deposited data

Results flagged for a closer look

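In 3 of 27 groups of 4 sums, 1 sum stood apart from the rest by Dixon's 95% criterion. Chance meets it in about 1 group in 20 for continuous values, a rate that does not hold for sums of few counts. Matn4 was 105 CPM in the P2 resting sum of animal G, where the other 3 sums held 0 to 15.4 CPM; that sum includes replicate 8, which holds both Xist and Y-linked counts. Vcan was 6.84 CPM in the P2 proliferative sum of animal A, from 1 count, where the other 3 held 0, so that any count would have met the criterion. Vcan was 7.39 CPM in the P2 hypertrophic sum of animal D, from 3 counts.

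For Matn1 and Lect1, in TMM-scaled CPM, every animal of an age moved one way and every animal of the other age the opposite way. The share of all genes with such a split is not given here. The resting against hypertrophic difference of Matn1 changed by -2.89 from P2 to P28 (adjusted p = 0.132, edgeR), higher in resting in all 3 P2 animals with both zones and lower in all 3 P28 animals. The resting against proliferative difference of Lect1 changed by -1.19 (adjusted p = 0.790, edgeR), with the same split. Neither split held in CPM of the counts outside the 3 heavy symbols. On that scale P28 animal A held Matn1 at 2256 in its resting and 1983 in its hypertrophic sum. P28 animal B held Lect1 at 8628 in its resting and 7757 in its proliferative sum.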

How the results depend on the processing

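Of 20 called values, 16 in ethanol and 4 in xylene sums, none changed sign under any alternative run, and 4 were called in every one run on them. The only ethanol value among these was Comp in P2 resting against hypertrophic sums. The others were Comp, Fn1 and Matn1 in xylene sums. Ethanol values faced 20 or 23 alternatives, and xylene values 4, with no animal left out. The counts of members called moved by over 1.5 times as follows. The share of all genes called under each alternative is not set beside them, so no excess among the members can be read from these counts. With no replicate block, that is without pairing the zones of an animal, P2 calls were 1 in hypertrophic against proliferative, 3 in resting against hypertrophic and 0 in resting against proliferative, and P28 calls were 0, 0 and 0. With DESeq2 they were 2 in P2 resting against proliferative, 1 and 2 between ages in proliferative and resting sums, 1 in the age change of resting against hypertrophic, 1 in each P28 resting comparison, and 2 and 1 in xylene hypertrophic and resting against proliferative. With RLE scaling both P28 resting comparisons called 1. At 200000 counts they were 3 in P2 resting against proliferative, 0 and 1 between ages in proliferative and resting sums, 2 and 1 in the age changes of resting against hypertrophic and proliferative, and 4 and 5 in the same P28 comparisons; 1 P28 resting sum remained there, assumed to vary like the other groups, so all of these that involve P28 resting rest on that sum. At 50000 counts outside the heavy symbols they were 1 and 1 in the P2 hypertrophic comparisons, 2 between ages in resting sums, and 1 and 0 in the P28 resting comparisons. Fitting each age alone gave 2 in P2 resting against proliferative and 1 and 0 in the P28 resting comparisons. Single libraries as samples gave 1, 1 and 0 at P2 and 0 and 1 in the P28 resting comparisons. No filter gave 3 in P2 resting against hypertrophic, 1 and 1 between ages, 1 in P28 resting against hypertrophic and 2 in xylene resting against proliferative. No deposit term gave 1 between ages in resting sums. Leaving out the heavy symbols gave 1 in P28 resting against hypertrophic. Alternatives chosen after seeing the data gave, for P28 resting against hypertrophic, 1 without libraries under 25000 counts outside the heavy symbols, 1 without P28 proliferative replicate 9, 1 without P2 resting replicate 8 and 4 with xylene sums added without hypertrophic replicate 3; P28 resting against proliferative gave 1 without replicate 9, and P2 resting against hypertrophic 3 without replicate 8. Leaving out each animal gave 1 to 2, 1 to 5 and 0 to 2 at P2 (hypertrophic against proliferative, resting against hypertrophic, resting against proliferative), 0 to 1, 0 to 2 and 0 to 2 at P28, 0 to 3 and 0 to 2 between ages in proliferative and resting sums, and 0 to 1 in the age change of resting against hypertrophic. The cause of these moves was not tested. With 3 P28 animals and sums as small as 20032 counts outside the heavy symbols, Matn4 and Vcan rest on few counts outside 1 group or sum.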
